A study of Mus musculus with 9 samples.

Results

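The interleukin 1 family and inflammasome genes examined here were Il1a, Il1b, Il1rn, Il1r1, Il1r2, Il18, Nlrp3, Casp1, Casp4 and Gsdmd, named as a list with no threshold on measured values, by a choice made with earlier results of these data known. They were 10 of the 22136 genes in the gene table, and all 10 were among the 13178 genes with enough counts to be tested. Expression was measured by RNA-seq in CD45+ cells, which are leukocytes, sorted from subcutaneous allografts of YUMM 2.1, a mouse melanoma line, grown in immunocompetent C57BL/6J mice. There were 3 libraries from tumours of mice given an antibody to B7-H3 (anti-B7-H3), an inhibitory ligand of the B7 family, 3 from mice given an antibody to the checkpoint receptor PD-1 (anti-PD1), and 3 from mice given an isotype control antibody (IgG). Treatment of every group began once tumours measured 20 to 50 mm3. No engineered allele is named for any group, and all tumours came from the same cell line. The labels give no age, dose or time of collection, and do not say that replicates came from separate animals, so p-values measure the spread between these libraries, which may be technical.

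Interleukin 1 alpha and interleukin 1 beta are inflammatory cytokines that act through the same signalling receptor, encoded by Il1r1. The receptor antagonist encoded by Il1rn occupies that receptor without signalling, and the decoy receptor encoded by Il1r2 binds the cytokines without passing on a signal. Interleukin 1 beta and interleukin 18 are made as inactive precursors that caspase-1 cuts after an inflammasome, such as the one built on the sensor NLRP3, has assembled, and gasdermin D then forms the membrane pores through which they leave the cell. In tumours, monocytes, macrophages and neutrophils are well-known sources of interleukin 1 beta. Messenger RNA levels, the only readout here, say nothing of the cutting or release of the proteins.

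Library totals over genes ran from 14441262 to 31447335 estimated counts. They were 18422238, 14441262 and 20428890 with IgG, 15009408, 29277426 and 31447335 with anti-B7-H3, and 30041334, 28046117 and 24190001 with anti-PD1. Every antibody library except the first anti-B7-H3 library was thus deeper than every IgG library. The part of depth in the results below was not tested. Counts are given per library size, as CPM, after scaling with TMM factors, which correct for differences in RNA composition, and 3 counts in a single library correspond to between 0.0925 and 0.223 CPM. Ptprc, which encodes CD45, stood between 1718 and 2913 CPM. Summed T cell markers ran from 5053 to 8753 CPM, whereas summed melanoma markers were at most 14.1 CPM and summed keratinocyte markers at most 3.41 CPM, with Dct listed at 0 in every library. The second IgG library lay far from the others on the first principal component (191.87, against -54.88 to 31.13), and the third anti-PD1 library on the second (-149.18), so the counts below are also given without both. Of the tested genes, 1896 had no count in the second IgG library, 1248 in the third anti-PD1 library and 822 in the third IgG library. The other libraries had 224 to 308 such genes. A count of 0 in those 3 libraries therefore need not mean that a transcript was absent.

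Promoter sequence is shown for the genes with the smallest adjusted p with anti-PD1, Il1a, Il1b and Il1rn, and for Casp4 as a gene that passed no test. Il1a and Il1b lie next to each other on chromosome 2, with 54.6 kb between them, at chr2:129299610-129309972 and chr2:129364570-129371139, both on the minus strand. Il1rn lies far from them on the plus strand of the same chromosome, at chr2:24336853-24351494. The RefSeq table of promoters (GRCm38.p6) held 9 of the 10 genes. Each sequence below is the 250 bases before an annotated start, written 5′ to 3′ on the strand of the gene, and capitals mark matches on either strand to the TATA box, which reads TATAAA, to the AP-1 motif, which reads TGANTCA, or to the NF-kB motif.
Il1a, chr2:129309973-129310222, minus strand: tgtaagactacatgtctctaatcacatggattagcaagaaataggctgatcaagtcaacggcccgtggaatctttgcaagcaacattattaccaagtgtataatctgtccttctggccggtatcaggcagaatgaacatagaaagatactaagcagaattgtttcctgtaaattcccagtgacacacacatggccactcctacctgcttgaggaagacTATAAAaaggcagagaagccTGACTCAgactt
Il1b, chr2:129371140-129371389, minus strand: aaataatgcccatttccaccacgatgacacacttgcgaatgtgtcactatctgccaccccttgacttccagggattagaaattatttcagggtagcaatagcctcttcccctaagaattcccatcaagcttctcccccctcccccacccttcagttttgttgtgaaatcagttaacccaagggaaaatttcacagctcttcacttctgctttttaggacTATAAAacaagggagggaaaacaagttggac
Il1rn, upstream start, chr2:24336610-24336859, plus strand: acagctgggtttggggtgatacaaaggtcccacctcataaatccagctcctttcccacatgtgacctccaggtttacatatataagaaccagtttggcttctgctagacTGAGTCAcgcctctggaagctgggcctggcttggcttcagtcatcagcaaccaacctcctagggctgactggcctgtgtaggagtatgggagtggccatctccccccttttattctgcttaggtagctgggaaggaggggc
Il1rn, downstream start, chr2:24345041-24345290, plus strand: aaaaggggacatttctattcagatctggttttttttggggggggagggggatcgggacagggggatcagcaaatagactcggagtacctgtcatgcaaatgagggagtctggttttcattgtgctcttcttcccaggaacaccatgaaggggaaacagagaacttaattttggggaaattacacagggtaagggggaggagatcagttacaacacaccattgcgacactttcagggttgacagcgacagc
Casp4, chr9:5308599-5308848, plus strand: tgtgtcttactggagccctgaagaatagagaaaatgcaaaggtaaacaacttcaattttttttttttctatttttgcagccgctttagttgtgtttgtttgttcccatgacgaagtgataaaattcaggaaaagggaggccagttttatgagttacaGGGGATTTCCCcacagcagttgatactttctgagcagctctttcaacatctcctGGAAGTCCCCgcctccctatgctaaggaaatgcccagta
Il1a and Il1b each held TATAAA on the gene strand, from base -32 to -27 in Il1a and from -31 to -26 in Il1b. Of the 32851 promoters in the table, 12.4% held TATAAA on either strand anywhere in the window, and 1.75% held it on the gene strand starting 25 to 35 bases before the start. The Il1a window also held TGACTCA at -12 to -6, and the upstream Il1rn window held TGAGTCA at -141 to -135, a motif found in 6.75% of promoters. The downstream Il1rn window held none of these motifs. The Casp4 window held overlapping matches to the NF-kB motif between -93 and -83 and another at -39 to -30, and 7.25% of promoters held at least 1 such match. Further NF-kB matches were found at the first start of Nlrp3 and the second start of Il1r1. A match describes the letters only and does not show that a factor binds there.

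Il1b and Il1rn were higher in leukocytes of tumours given either antibody. Il1b was 12.8-fold higher with anti-B7-H3 and 32.4-fold higher with anti-PD1 than with IgG, and Il1rn was 6.30-fold and 12.9-fold higher. With anti-PD1, Il1a was also higher, by 34.1-fold, and Il1r2 by 2.70-fold. Casp1, Casp4 and Gsdmd stood at 0.773 to 1.18 times their IgG level in both comparisons, and none of them passed.

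With anti-B7-H3 against IgG, 2 of the 10 genes were higher (edgeR's quasi-likelihood test, Benjamini-Hochberg adjusted p under 0.05) and none was lower, where 0.827% of all tested genes were higher and 0.0228% lower. With anti-PD1 against IgG, 4 of the 10 were higher and none was lower, where 1.72% of all tested genes were higher and 0.0152% lower. All 3 antibody libraries lay above all 3 IgG libraries for 4 of the 10 genes with anti-B7-H3 (9.96% of all tested genes) and for 5 of the 10 with anti-PD1 (9.99% of all tested genes). The median log2 fold change of the 10 genes was 0.57 for anti-B7-H3 and 1.07 for anti-PD1, beside 0.02 and -0.04 over all tested genes. Both comparisons use the same IgG libraries and are therefore not independent. Il1a, Il1b and Il1rn, 3 of the 10 genes, were higher in each comparison without the second IgG and the third anti-PD1 libraries. This setting was chosen after seeing the data. Over all genes and in either direction, it called 143 in the anti-B7-H3 comparison, where the main fit called 112. In the anti-PD1 comparison it called 234, where the main fit called 229. The anti-PD1 call of Il1r2 was lost in this setting (log2 fold change 1.47, edgeR, adjusted p = 0.123). In bulk RNA, fewer cells of a type and less RNA per cell cannot be told apart, and the same holds for more.

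**Figure D1:**
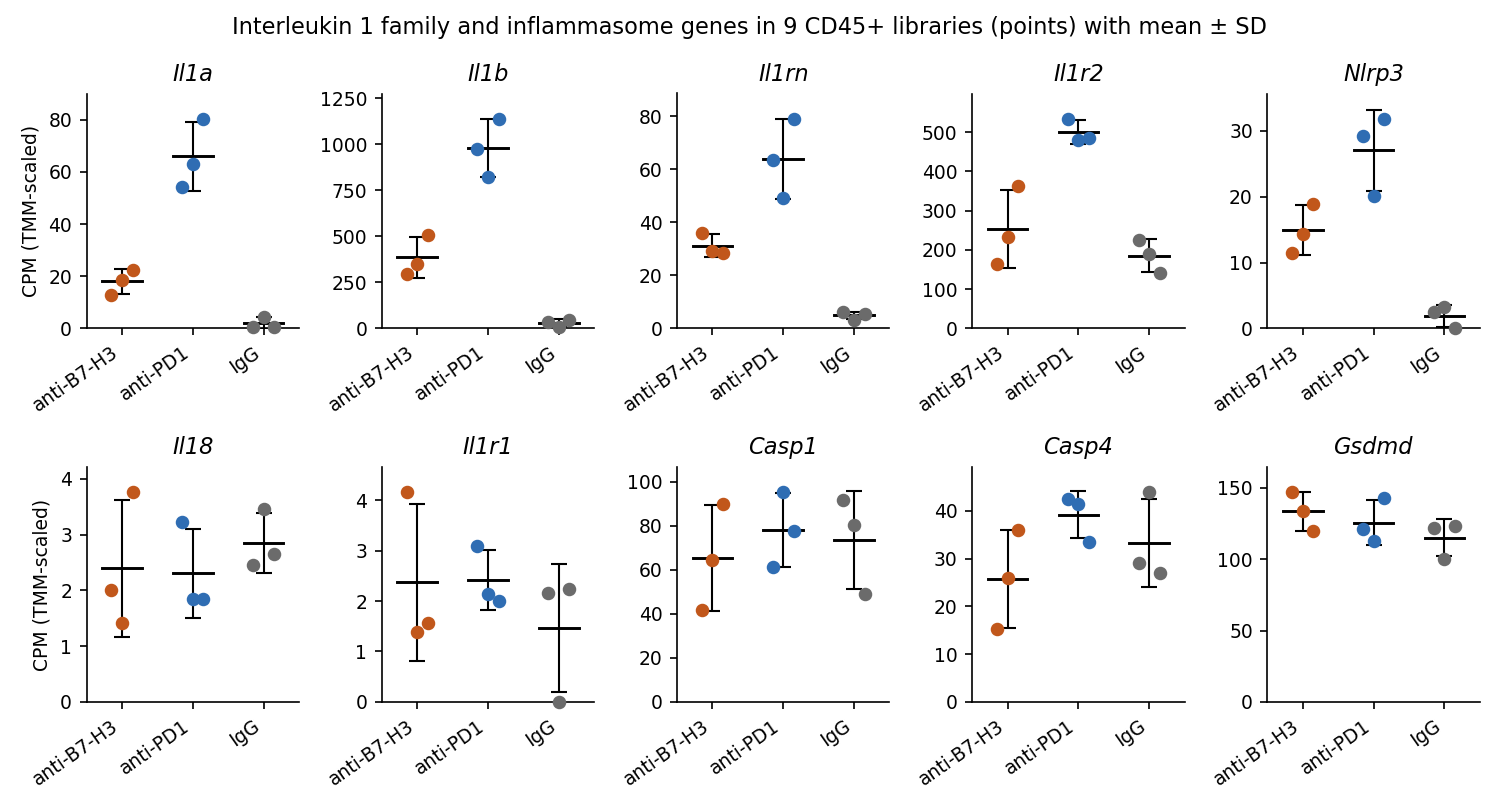
Expression of the 10 genes in each library, as TMM-scaled CPM on a linear axis from 0, with anti-B7-H3 (orange), anti-PD1 (blue) and IgG (grey) libraries as points, the mean as a line and the SD as bars (n = 3 each). Il1a, Il1b, Il1rn and Nlrp3 separate into 3 levels with anti-PD1 highest and IgG lowest, Il1r2 separates anti-PD1 from both other groups, and the other 5 genes overlap between groups.

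Among the ligands, Il1b was the most abundant. It stood at 298, 350.2 and 509 CPM in the anti-B7-H3 libraries, at 977, 824 and 1139 CPM in the anti-PD1 libraries, and at 35.3, 6.99 and 48.3 CPM in the IgG libraries. No group overlapped another, and the second IgG library held the lowest value. The log2 fold change was 3.67 ± 0.60 (SE) with anti-B7-H3 (adjusted p = 0.0256, 95% interval 2.32 to 5.02) and 5.02 ± 0.64 with anti-PD1 (adjusted p = 0.00531, 95% interval 3.58 to 6.46). The anti-B7-H3 call depended on the libraries in the fit. The adjusted p lay between 0.0552 and 0.0981 when the first IgG library, any anti-B7-H3 library or any anti-PD1 library was left out, and was 0.00114 without the second IgG library. The call was also lost without a filter on low counts (adjusted p = 0.136) and in a fit of only the 6 libraries compared (adjusted p = 0.0961).

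Il1a, whose product can act as an alarm signal released by dying cells, was lower in level than Il1b but followed the same order of groups. Its values were 13.0, 18.6 and 22.6 CPM with anti-B7-H3, 54.4, 63.1 and 80.4 CPM with anti-PD1, and 0.602, 4.58 and 0.674 CPM with IgG. The groups did not overlap, and the second IgG library, which was lowest for Il1b, was here the highest of its group. The rise with anti-PD1 was 5.09 ± 0.75 on the log2 scale (edgeR, adjusted p = 0.00750). With anti-B7-H3 the log2 fold change of 3.23 ± 0.70 did not pass (adjusted p = 0.0823, 95% interval 1.68 to 4.77). Without the second IgG library it was 4.84, with an adjusted p of 0.000668, and that library held 74 counts of Il1a, against 12 and 13 in the other IgG libraries. DESeq2 called Il1a with anti-B7-H3 as well (3.20, adjusted p = 6.81e-05). So did edgeR without immunoglobulin, T cell receptor, haemoglobin, mitochondrial and ribosomal protein genes (3.25, adjusted p = 0.0438).

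Il1rn, encoding the receptor antagonist, rose with both antibodies. It was measured at 36.1, 29.1 and 28.3 CPM with anti-B7-H3, at 63.4, 49.2 and 79.0 CPM with anti-PD1, and at 6.07, 3.28 and 5.45 CPM with IgG. The groups did not overlap. The log2 fold change was 2.66 ± 0.31 with anti-B7-H3 (edgeR, adjusted p = 0.00367) and 3.69 ± 0.33 with anti-PD1 (adjusted p = 0.000465), and both calls held whichever library was left out. With limma-voom the anti-B7-H3 call was lost (adjusted p = 0.0740). These were the smallest adjusted p-values among the 10 genes in both comparisons.

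Il1rn has an upstream start, known to give intracellular forms of the antagonist, and a downstream start, known to give the secreted form. Nearly all of its estimated counts lay on transcript models that begin near the downstream start, at base 24345310 or 24345288 of chromosome 2. The model Il1rn-201, 537 bases long, took 75.6%, 91.2% and 74.4% of Il1rn counts with anti-B7-H3, and 82.4%, 81.5% and 83.7% with anti-PD1, against 95.1%, 100% and 87.5% with IgG. Most of the rest lay on Il1rn-202, also at the downstream start, which reached 25.6% in the third anti-B7-H3 library. Models with the upstream start, Il1rn-204 and Il1rn-205, were at 4.46% in the first anti-PD1 library, at 1.01% or less in 3 other antibody libraries and at 0 elsewhere. The IgG shares rest on 53 to 121 counts a library. The files do not say how reads shared by these models were divided, so the shares are described without a test.

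**Figure D2:**
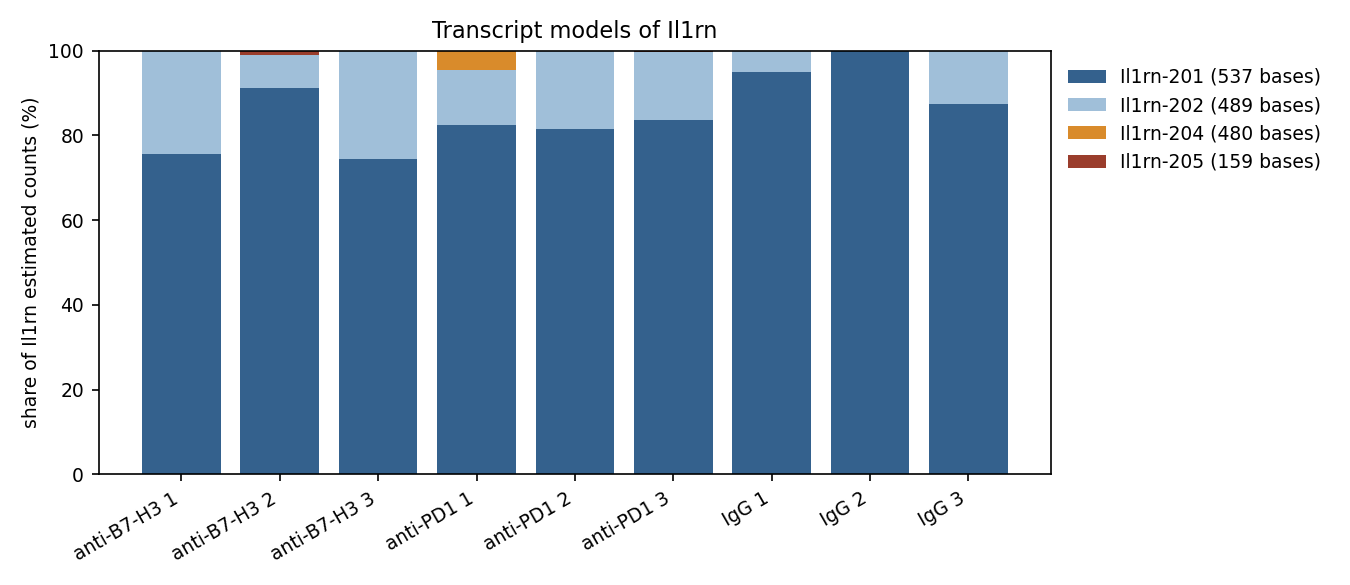
Share of the estimated counts of Il1rn on each transcript model (percent, stacked to 100) in each of the 9 libraries, with anti-B7-H3 and anti-PD1 libraries left of IgG. Il1rn-201 takes from 74.4% to 100% of the counts in every library, and the models with the upstream start are visible in 2 libraries only.

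The receptors differed from each other in level. Il1r2 and Il1r1 are neighbours on the plus strand of chromosome 1, at chr1:40074079-40125231 and chr1:40225080-40317257, with 99.8 kb between them. Il1r2, the decoy receptor, stood at 165, 234 and 362 CPM with anti-B7-H3, at 534, 481 and 484 CPM with anti-PD1, and at 225, 190.3 and 141 CPM with IgG. The anti-PD1 libraries lay above all others, whereas anti-B7-H3 and IgG overlapped. With anti-PD1 it rose by 1.43 ± 0.28 on the log2 scale (edgeR, adjusted p = 0.0285), and with anti-B7-H3 the log2 fold change was 0.45 ± 0.28 (adjusted p = 0.727, 95% interval -0.16 to 1.06). The anti-PD1 call was lost, with log2 values from 1.27 to 1.47 and adjusted p from 0.0580 to 0.114, when the second or the third IgG library, the second anti-B7-H3 library or any anti-PD1 library was left out.

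Il1r1, the signalling receptor, was low in every library. It had 56, 41 and 51 counts with anti-B7-H3, 90, 58 and 48 counts with anti-PD1, and 43, 0 and 43 counts with IgG. Scaled, it was at 4.16, 1.38 and 1.57 CPM with anti-B7-H3, at 3.09, 2.15 and 2.00 CPM with anti-PD1, and at 2.16, 0 and 2.23 CPM with IgG. The groups overlapped, and the log2 fold changes of 0.69 with anti-B7-H3 (edgeR, adjusted p = 0.945) and 0.72 with anti-PD1 (adjusted p = 0.906) had 95% intervals from -2.30 to 3.68 and from -2.27 to 3.70. These intervals, with the second IgG library at 0, leave room for a change of several-fold in either direction. Counts of Il1r2 per count of Il1r1 were 39.5, 167 and 228 with anti-B7-H3, and 172, 222 and 239 with anti-PD1, against 103 and 62.4 in the first and the third IgG libraries. In the second IgG library Il1r1 had no count.

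Nlrp3, the sensor on which the best-studied inflammasome assembles, lies at chr11:59541568-59566956 on the plus strand. It was at 11.4, 14.4 and 19.0 CPM with anti-B7-H3, at 29.3, 20.2 and 31.9 CPM with anti-PD1, and at 2.46, 3.22 and 0 CPM with IgG. Those IgG values are 49, 52 and 0 counts. All antibody libraries lay above all IgG libraries, and the anti-PD1 libraries lay above the anti-B7-H3 libraries. The log2 fold change was 2.98 ± 1.00 with anti-B7-H3 (edgeR, adjusted p = 0.384, 95% interval 0.75 to 5.22) and 3.84 ± 1.04 with anti-PD1 (adjusted p = 0.130, 95% interval 1.52 to 6.16), and neither passed. Without the third IgG library, the one at 0, both passed, at 2.40 (adjusted p = 0.0391) and 3.25 (adjusted p = 0.00845). DESeq2 called both as well.

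Il18, the other cytokine that caspase-1 matures, was low in every group. Its counts were 27, 42 and 122 with anti-B7-H3, and 94, 50 and 44 with anti-PD1, against 49, 56 and 51 with IgG. Scaled, it was at 2.00, 1.41 and 3.76 CPM with anti-B7-H3, at 3.23, 1.85 and 1.84 CPM with anti-PD1, and at 2.46, 3.47 and 2.65 CPM with IgG. The groups overlapped. The log2 fold change was -0.25 with anti-B7-H3 (95% interval -2.16 to 1.66) and -0.31 with anti-PD1 (95% interval -2.22 to 1.60). Il18, at chr9:50554827-50581840, overlaps the annotated spans of Tex12 and Bco2, and the labels give no stranded kit. Whether the counted transcript models of these genes share sequence was not tested.

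The enzymes and the pore-forming protein were well measured and showed no difference that passed the test. Casp1 and Casp4 lie 1.56 kb apart on the plus strand of chromosome 9, at chr9:5298517-5307265 and chr9:5308828-5336783. Casp1, whose product matures both cytokines, was at 42.0, 64.4 and 90.02 CPM with anti-B7-H3, at 61.5, 95.3 and 77.7 CPM with anti-PD1, and at 91.8, 80.5 and 48.9 CPM with IgG. Its log2 fold changes were -0.17 with anti-B7-H3 (95% interval -0.88 to 0.54) and 0.08 with anti-PD1 (95% interval -0.62 to 0.79), and neither sign was stable. The anti-B7-H3 sign turned without the first anti-B7-H3 or the first IgG library, and the anti-PD1 sign without the second anti-PD1 or the third IgG library. Casp4, encoding the caspase that senses bacterial lipopolysaccharide in the cytosol, was at 15.3, 26.0 and 35.9 CPM with anti-B7-H3, at 42.5, 41.5 and 33.5 CPM with anti-PD1, and at 29.1, 43.9 and 27.0 CPM with IgG. Its log2 fold changes were -0.37 (95% interval -1.11 to 0.36) with anti-B7-H3 and 0.23 (95% interval -0.50 to 0.97) with anti-PD1.

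Gsdmd, at chr15:75862327-75867408 on the plus strand, varied least. It was at 147, 133 and 119.9 CPM with anti-B7-H3, at 121, 113 and 143 CPM with anti-PD1, and at 122, 99.9 and 123 CPM with IgG. The groups overlapped, and the log2 fold changes were 0.21 with anti-B7-H3 (edgeR, adjusted p = 0.846, 95% interval -0.19 to 0.62) and 0.13 with anti-PD1 (adjusted p = 0.862, 95% interval -0.27 to 0.53). For this gene the intervals leave room for a rise of at most 0.62 on the log2 scale. The intervals of Casp1 and Casp4 reach up to 0.79 and 0.97, so smaller changes in these genes could not be told from none.

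**Figure D3:**
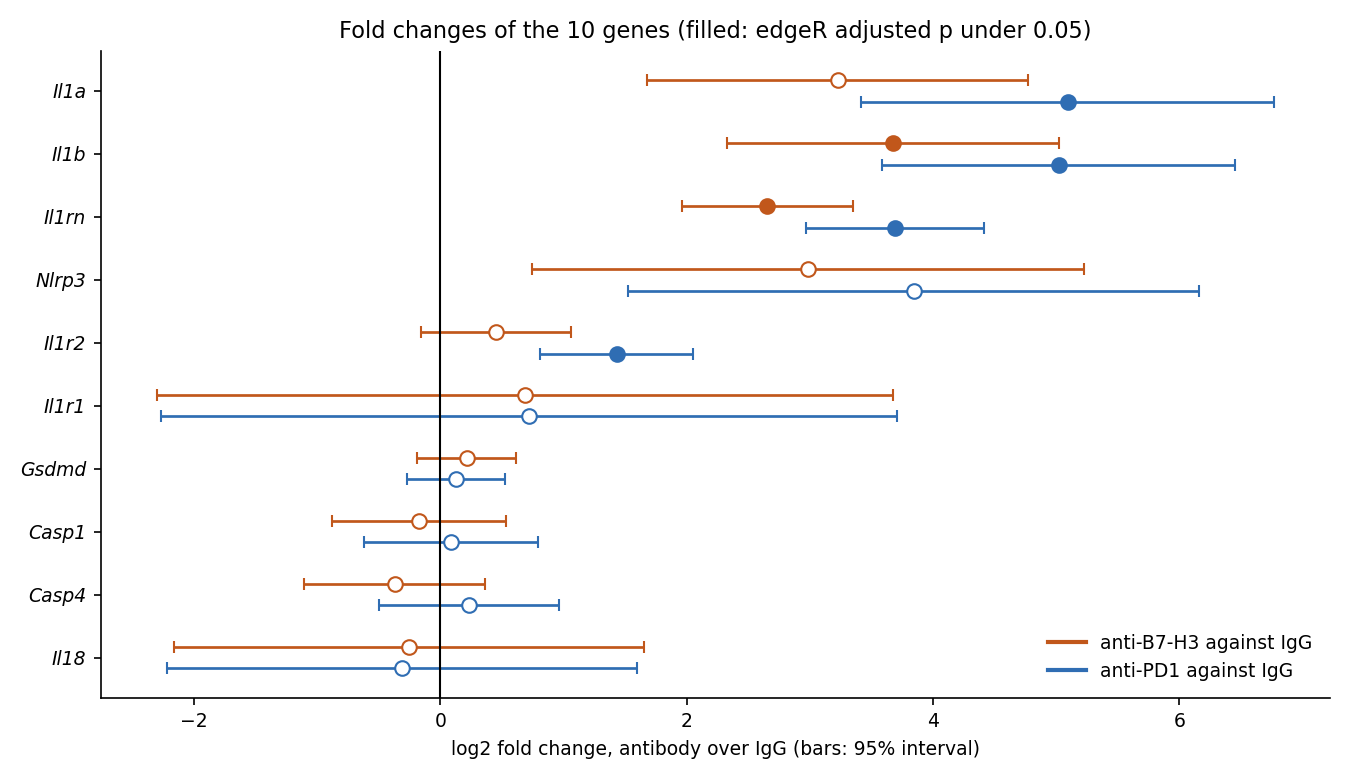
Log2 fold change of each of the 10 genes in anti-B7-H3 (orange) and anti-PD1 (blue) libraries over IgG, with 95% intervals as bars and filled points where edgeR's adjusted p was under 0.05. Il1a, Il1b, Il1rn and Nlrp3 lie between 2.66 and 5.09 with intervals above 0, Il1r2 lies above 0 with anti-PD1, and the intervals of the other genes span 0.

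Set directly against each other, anti-B7-H3 libraries had lower values than anti-PD1 libraries for the genes that were higher than IgG. None of the 10 genes passed the adjusted test, with every adjusted p at 1.00, and 0% of all tested genes did (edgeR). At an unadjusted p under 0.05, 4 of the 10 were lower with anti-B7-H3, where 1.97% of all tested genes were lower. The log2 differences of these genes, anti-B7-H3 over anti-PD1, were -1.87 for Il1a (95% interval -3.30 to -0.43), -1.34 for Il1b (-2.58 to -0.11), -1.04 for Il1rn (-1.69 to -0.38) and -0.98 for Il1r2 (-1.59 to -0.37). For these and for Nlrp3, all 3 anti-B7-H3 libraries lay below all 3 anti-PD1 libraries, which was true of 6.4% of all tested genes. Across the whole table DESeq2 called 15 genes and limma-voom 2, of which Il1a was 1 (limma-voom, -1.64, adjusted p = 0.0455). For the other genes the 95% intervals of the difference spanned 0, from the narrowest, Gsdmd (-0.31 to 0.49), to the widest, Il1r1 (-3.00 to 2.93).

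Levels of different genes were compared per length of the deposited transcript models, as TPM values summed over the models of a gene, and are given as mean ± SD of 3 libraries. With anti-B7-H3 the order was led by Il1b (321 ± 145 TPM), Il1r2 (139 ± 72.8), Gsdmd (78.1 ± 3.21) and Il1rn (46.1 ± 5.88), followed by Casp1 (33.3), Casp4 (16.1), Il1a (15.0), Nlrp3 (4.75), Il18 (4.22) and Il1r1 (0.704). With anti-PD1 it was led by Il1b (783 ± 141 TPM), Il1r2 (253 ± 12.8), Il1rn (93.5 ± 23.2), Gsdmd (84.0 ± 15.4) and Il1a (52.4 ± 11.3), followed by Casp1 (38.0), Casp4 (26.0), Nlrp3 (8.005), Il18 (4.43) and Il1r1 (0.774). With IgG it was led by Il1r2 (107 ± 48.5 TPM), Gsdmd (88.5 ± 24.0), Casp1 (40.0 ± 17.5), Il1b (24.5 ± 15.8) and Casp4 (23.5 ± 11.7), followed by Il1rn (7.37), Il18 (5.02), Il1a (1.73), Nlrp3 (0.514) and Il1r1 (0.493). Short models weigh heavily in such sums, as with Gsdmd-203, which is 172 bases long and gave 34.3, 19.0 and 26.8 TPM of Gsdmd with anti-B7-H3, 22.1, 42.7 and 41.8 TPM with anti-PD1, and 56.5, 40.0 and 24.1 TPM with IgG.
Il1b had the highest mean in both antibody groups, and the fourth highest in IgG, where Il1r2, Gsdmd and Casp1 were above it, and Il1r1 had the lowest in each group. Neighbours in the order did not overlap for 3 of the 9 pairs with anti-B7-H3 (Gsdmd above Il1rn, Il1a above Nlrp3, Il18 above Il1r1). With anti-PD1 only Il1rn with Gsdmd and Il1a with Casp1 overlapped, and with IgG only Gsdmd above Casp1 and Casp4 above Il1rn did not. The place of Gsdmd rests in part on its short models. Its longest model, Gsdmd-201, alone gave 42.5, 53.5 and 51.4 TPM with anti-B7-H3, overlapping Il1rn (39.3 to 49.7). It gave 44.5, 41.0 and 54.6 TPM with anti-PD1, overlapping Il1a (43.3 to 65.0). With IgG it gave 54.8, 41.2 and 39.0 TPM, overlapping Casp1 (20.6 to 54.5).

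Summed markers of macrophages, neutrophils and monocytes were higher in both antibody groups than in IgG. Between the antibodies, the macrophage and monocyte sums overlapped, and the neutrophil sums were lower with anti-B7-H3. The summed level of 13 macrophage markers was 1701, 1069 and 1235 CPM with anti-B7-H3, 1522, 1599 and 1302 CPM with anti-PD1, and 154, 71.6 and 202 CPM with IgG, and 7 of the 13 were higher by the test with anti-B7-H3 and 8 of the 13 with anti-PD1. Of these markers Csf1r, Mertk, Fcgr1 and Msr1 were at 0 in the second IgG library. The 14 neutrophil markers summed to 473, 327 and 575 CPM with anti-B7-H3, to 945, 1100 and 790 CPM with anti-PD1, and to 106, 125 and 101 CPM with IgG. Of the 11 that could be tested, 3 were higher under anti-B7-H3 and 5 under anti-PD1, and none was lower. In each comparison 10 of the 11 had a log2 fold change above 0. The lowest was -0.31 in the anti-B7-H3 comparison, whereas it was -4.16 in the anti-PD1 comparison. Ly6g had at most 1.68 CPM and was at 0 in the second IgG library. Of the 14 markers, Camp was at 0 in 7 libraries, Elane in 8 and Ngp in 5. The 9 monocyte markers summed to 2012 to 3004 CPM with anti-B7-H3, 1822 to 2974 CPM with anti-PD1 and 836 to 1441 CPM with IgG, with 2 of 9 higher in each comparison. Summed fibroblast markers were also higher but low, at 8.42 to 14.2 CPM with anti-B7-H3, 13.3 to 29.7 CPM with anti-PD1 and 0.495 to 1.45 CPM with IgG.

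Ratios within a library, which do not depend on library scaling, set the genes against these markers. They were compared with a two-sided exact permutation test of 3 against 3 libraries, for which 0.1 is the smallest p possible, so no ratio could pass, and over the 21 tests made the lowest adjusted p was 0.21. Counts of Il1b per count of summed macrophage markers were 0.175, 0.328 and 0.412 with anti-B7-H3, and 0.642, 0.515 and 0.874 with anti-PD1, against 0.230, 0.0981 and 0.240 with IgG. Anti-PD1 libraries lay above both other groups (exact p = 0.1 each), and anti-B7-H3 overlapped with IgG (exact p = 0.3). Per count of neutrophil markers, Il1b was at 0.630, 1.07 and 0.886 with anti-B7-H3, and 1.03, 0.749 and 1.44 with anti-PD1, against 0.332, 0.0561 and 0.479 with IgG. Both antibody groups lay above IgG (exact p = 0.1 each), by 2.02 and 2.32 on the log2 scale.

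The antagonist and the decoy receptor were set against macrophage markers after their values were seen. Il1rn per count of macrophage markers was 0.0212, 0.0272 and 0.0229 with anti-B7-H3, and 0.0417, 0.0308 and 0.0607 with anti-PD1, against 0.0396, 0.0462 and 0.0271 with IgG, and both antibody groups overlapped with IgG. The median log2 fold change of the macrophage markers was 3.39 for anti-B7-H3 and 3.67 for anti-PD1, beside 2.66 and 3.69 for Il1rn. Il1r2 per count of macrophage markers was lower in both antibody groups, at 0.0973, 0.219 and 0.293 with anti-B7-H3 and 0.351, 0.301 and 0.372 with anti-PD1, against 1.46, 2.66 and 0.699 with IgG (exact p = 0.1 each). Il1r2 itself had log2 fold changes of 0.45 and 1.43, so the lower ratio follows from the larger rise of the marker sum. The ratio does not measure Il1r2 per macrophage. The part of the marker changes in the results above was not tested. The ratios could not test it, as none could pass and bulk counts do not show which cells held a transcript.

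The balance of agonist to antagonist transcripts was higher in every anti-PD1 library than in every IgG library, though no ratio could pass. Counts of Il1b per count of Il1rn were 8.25, 12.0 and 18.0 with anti-B7-H3, and 15.4, 16.8 and 14.4 with anti-PD1, against 5.80, 2.12 and 8.83 with IgG. The anti-PD1 libraries lay above the IgG libraries, by 1.70 on the log2 scale (exact p = 0.1), and varied little among themselves. The anti-B7-H3 libraries overlapped with IgG (1.35, exact p = 0.2) and with anti-PD1 (-0.35, exact p = 0.4). Counts of Il1b per count of Il1a were 22.9, 18.8 and 22.5 with anti-B7-H3, and 18.0, 13.0 and 14.2 with anti-PD1, against 56.4, 1.52 and 69.0 with IgG, so the control libraries spread on both sides of the antibody libraries.

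**Figure D4:**
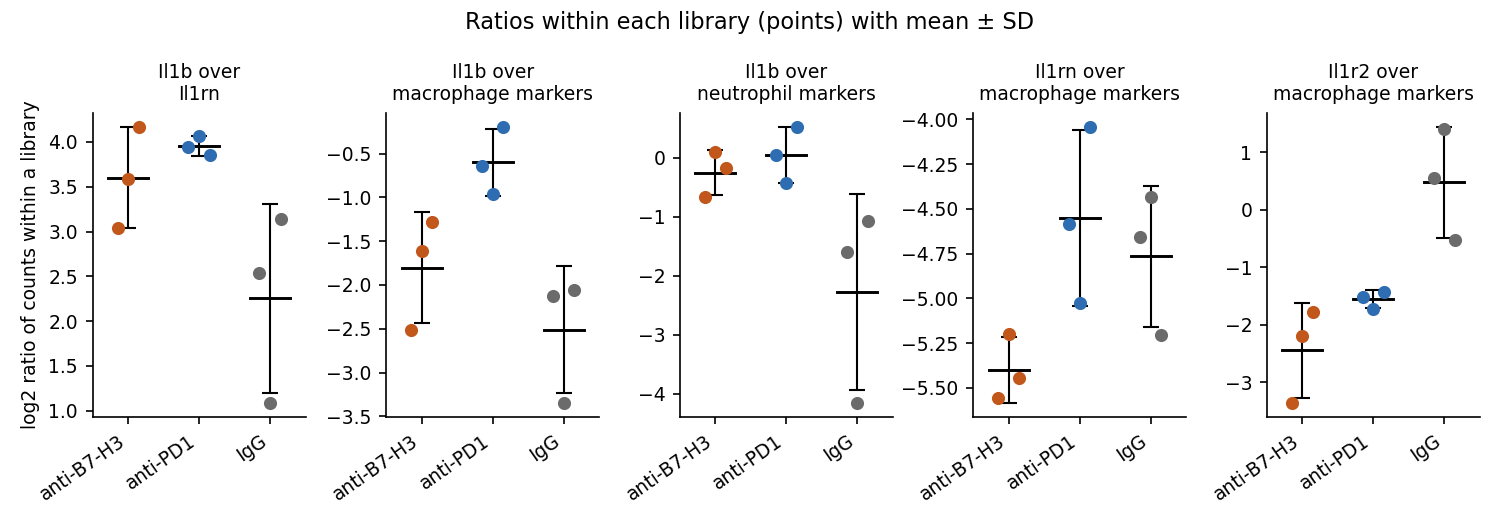
Log2 ratio of counts within each library (points) for 5 ratios, with the mean as a line and the SD as bars (n = 3 each) for anti-B7-H3 (orange), anti-PD1 (blue) and IgG (grey). Il1b over Il1rn and Il1b over macrophage markers are higher with anti-PD1 than with IgG in every library. Il1b over neutrophil markers is higher with both antibodies. Il1r2 over macrophage markers is lower with both, where the marker sum rose more than Il1r2.

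Other genes of the pathway were taken from lists by role. Of the other ligands of the family, 6 were in the table under their symbols and 2 could be tested, and neither passed. Il1f9, which encodes interleukin 36 gamma, was at 4.01, 4.04 and 4.90 CPM with anti-B7-H3, at 8.93, 9.47 and 5.76 CPM with anti-PD1, and at 0.201, 0 and 1.04 CPM with IgG (edgeR, adjusted p = 0.380 and 0.127). DESeq2 called Il1f9 with anti-B7-H3 (adjusted p = 0.0144) and with anti-PD1 (adjusted p = 0.000184). In edgeR, Il1f9 passed with anti-PD1 once the third IgG library was left out (adjusted p = 0.0467). Il33, an alarmin of barrier cells, was between 0.0501 and 7.49 CPM without separation of the antibody groups from IgG. None of the 7 other receptors and binding proteins passed in either comparison. Il1rl1, the interleukin 33 receptor, was at 40.1 to 64.5 CPM with anti-B7-H3, 53.2 to 91.1 CPM with anti-PD1 and 45.0 to 151 CPM with IgG, and Il1rap, the co-receptor shared by several family members, was at 4.30 to 11.4, 13.1 to 20.3 and 3.01 to 11.6 CPM.

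None of the 14 testable inflammasome sensors and adaptors passed in either comparison. Nlrp12, an NLR protein of myeloid cells, had no count in the 3 IgG libraries, and stood at 0.148, 1.04 and 1.17 CPM with anti-B7-H3 and at 4.71, 10.2 and 0 CPM with anti-PD1. The third anti-PD1 library was thus at 0 as well, the first anti-B7-H3 library was below 3 counts, and neither comparison passed (edgeR, adjusted p = 0.455 for anti-B7-H3, 0.175 for anti-PD1). DESeq2 called Nlrp12 with anti-PD1 (adjusted p = 0.000937). Mefv, encoding the sensor pyrin, was at 11.0, 13.8 and 13.5 CPM with anti-B7-H3, at 15.4, 15.1 and 13.5 CPM with anti-PD1, and at 3.56, 0 and 3.99 CPM with IgG (adjusted p = 0.540 and 0.387). It passed with anti-PD1 once the second IgG library was left out (adjusted p = 0.0258). Pycard, the adaptor that links sensors to caspase-1 and a gene named for that role after its values were seen, ran from 122 to 256 CPM over all libraries, with log2 fold changes of -0.08 for anti-B7-H3 and -0.24 for anti-PD1.

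None of the 6 testable executioners and regulators of pyroptosis passed either. Ninj1, whose product ruptures the membrane of dying cells, was at 30.3, 35.4 and 32.2 CPM with anti-B7-H3, at 39.7, 43.7 and 50.2 CPM with anti-PD1, and at 22.0, 28.7 and 20.3 CPM with IgG. Its groups did not overlap, and the adjusted p was 0.637 for anti-B7-H3 and 0.105 for anti-PD1 (edgeR). DESeq2 called Ninj1 with anti-PD1 (adjusted p = 0.00906). Casp8, an initiator caspase of cell death, was at 125 to 158 CPM with anti-B7-H3, 129.5 to 176 CPM with anti-PD1 and 165 to 252 CPM with IgG. Among 12 genes of the signalling chain below the receptor none passed. Myd88, the adaptor of the receptor, was at 61.8 to 76.7 CPM with anti-B7-H3, 56.8 to 66.5 CPM with anti-PD1 and 45.5 to 68.8 CPM with IgG, and the kinase gene Map3k7 had log2 fold changes of -0.04 for anti-B7-H3 and -0.68 for anti-PD1 (adjusted p = 0.993 and 0.620).

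Known targets of interleukin 1 and NF-kB signalling, which other stimuli also induce, were the group in which further genes passed. Of 13 testable targets 1 was higher under anti-B7-H3 and 5 under anti-PD1, and none was lower. Over all tested genes, 0.827% and 1.72% were higher, and 0.0228% and 0.0152% lower. The median log2 fold change of the list was 0.97 for anti-B7-H3 and 1.52 for anti-PD1, beside 0.02 and -0.04 over all tested genes. Cxcl2, a chemokine that attracts neutrophils, was at 57.0, 68.9 and 63.5 CPM with anti-B7-H3, at 169.7, 175 and 212 CPM with anti-PD1, and at 7.97, 4.58 and 10.6 CPM with IgG. It rose by 3.03 ± 0.29 on the log2 scale with anti-B7-H3 (edgeR, adjusted p = 0.00159) and by 4.58 ± 0.31 with anti-PD1 (adjusted p = 0.000234), and both calls held whichever library was left out.

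With anti-PD1, 4 further targets passed. Cxcl1, a related chemokine, was at 0.965, 1.58 and 0.370 CPM with anti-B7-H3 and at 5.39, 4.62 and 4.59 CPM with anti-PD1, with no count in any IgG library. Bounds were set with counts pooled within each group, against a floor of 3 counts over the IgG group. The pooled level was at least 90.3-fold that floor with anti-PD1, which passed (edgeR, adjusted p = 0.0271). With anti-B7-H3 it was at least 17.6-fold, and that comparison did not pass (adjusted p = 0.117). These bounds leave out the spread between libraries. Nfkbia, encoding the inhibitor that holds NF-kB in the cytoplasm, was at 1089, 1360 and 1467 CPM with anti-B7-H3, at 2166, 1754 and 2542 CPM with anti-PD1, and at 761, 1022 and 1093 CPM with IgG. It rose by 1.17 ± 0.22 on the log2 scale with anti-PD1 (adjusted p = 0.0267). Nfkbiz, a nuclear regulator of NF-kB targets, rose by 1.74 ± 0.34 with anti-PD1 (adjusted p = 0.0287). The fifth target, named after its values were seen so that the count is complete, was Zc3h12a, encoding an RNase that degrades inflammatory transcripts, at 1.64 ± 0.35 with anti-PD1 (adjusted p = 0.0455). These 4 calls were not stable. With limma-voom those of Cxcl1 (adjusted p = 0.0655), Nfkbiz (0.0690) and Zc3h12a (0.102) were lost, and in a fit of only the 6 libraries compared those of Nfkbia (0.0603) and Cxcl1 (0.0777). Each was lost without the first or the third anti-PD1 library or the second anti-B7-H3 library. The calls of Cxcl1, Nfkbiz and Zc3h12a were also lost without the second anti-PD1 or the third IgG library, those of Cxcl1, Nfkbia and Zc3h12a without the first IgG library, and those of Nfkbiz and Zc3h12a without the second IgG library. Without 1 library, the highest adjusted p was 0.112 for Cxcl1, 0.107 for Nfkbia, 0.117 for Nfkbiz and 0.163 for Zc3h12a.

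Among 8356 other genes with a mean of at least 10 CPM, those whose pattern over the 9 libraries lay closest to Il1b were Clec4e, Fcrlb, Clec7a, C5ar1 and Arg1. Likeness was measured as the root mean square difference of centred log2 CPM, which was 0.583, 0.638, 0.731, 0.769 and 0.833 for these genes, against a median of 2.45 over all genes compared. For Casp1 the closest were Ostm1, Arhgap18, Cul2, Suco and Ulk1, between 0.133 and 0.153 against a median of 0.545. These distances describe 9 libraries and carry no test.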

How the data were processed

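The 9 libraries were made from amplified RNA of CD45+ cells (SMART-Seq v4, ribosomal RNA depletion, Nextera XT), per the labels' protocols. The authors deposited, for each library, estimated counts and TPM per transcript model, per the file headers. FastQC 0.11.8 and GRCm38 are named in the submitters' processing notes, while the quantifier is not given in the sources used here. Of 58083 transcripts, 57409 were matched to GENCODE M21, and 87.3% of model lengths are multiples of 3, so most are likely coding lengths, which no source states. Counts were summed per gene and rounded. The main test was the quasi-likelihood test of edgeR 4.0.16 (TMM, filterByExpr, all 9 libraries, Benjamini-Hochberg over 13178 genes, threshold 0.05). Alternatives used DESeq2 1.42.0, limma 3.58.1, other filters and scalings, a replicate block, and each library left out. Intervals cover counting error and the spread between libraries only. Floors are a fixed 3 counts and leave out that spread.

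The members and lists were chosen with earlier results of these data known. Every member is named, and from each list of other genes up to 4 that passed, or up to 2 by smallest p where none did. The genes most like Il1b and Casp1 are the 5 closest, outside the lists, by root mean square difference of centred log2 CPM. Ratios add 0.5 counts to each sum.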

Additional observations from a re-analysis of the deposited data

How the results depend on the processing

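Il1a, Il1b and Il1rn passed with anti-PD1 against IgG under every alternative run, and Il1rn with anti-B7-H3 under every one except limma-voom (2.44, adjusted p = 0.0740). With anti-B7-H3, 4 of the 10 genes passed under DESeq2, and 1 each under limma-voom, without a filter (Il1b lost, adjusted p = 0.136) and in a fit of only the 6 libraries compared. DESeq2 also called the targets Cxcl1 (adjusted p = 0.00129) and Nfkbiz (adjusted p = 0.0235) with anti-B7-H3. Leaving out each library in turn gave 1 to 3 genes with anti-B7-H3, and 3 to 4 for anti-PD1. For anti-B7-H3 against anti-PD1, 1 of the 10 passed under limma-voom (Il1a).

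Over all genes, DESeq2 called 394 for anti-B7-H3 against IgG, 660 for anti-PD1 against IgG and 15 between the antibodies. The 6-library fits called 44 and 136 in the IgG comparisons, and limma-voom called 2 between the antibodies. Leaving out each library in turn gave 59 to 144, 113 to 262 and 0 to 1. Same-numbered libraries did not deviate together (correlations from -0.12 to 0.16, with 1 of 9 over 0.1), so their numbers were not read as pairs. The replicate block gave 64 and 127 genes in the IgG comparisons, 2 and 3 of the 10 genes, and lost the anti-PD1 calls of Il1r2 (1.42, adjusted p = 0.0988), Nfkbia (0.0613), Cxcl1 (0.116) and Nfkbiz (0.0865).

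Signs turned only for log2 fold changes that passed no test. With anti-B7-H3, limma-voom gave 1.80 for Il33, 0.17 for Il1rap and 0.19 for Map3k7, and the block gave 0.091 for Map3k7. Without the second IgG and the third anti-PD1 libraries, with anti-B7-H3 Il33 was 0.57, Il1rap 0.15 and Map3k7 0.18, with anti-PD1 Gsdmd was -0.067 and Il1rl1 0.23, and Il18 was -0.08 between the antibodies, where limma-voom gave -0.18. Leaving out each library in turn with anti-B7-H3 gave -0.47 to 0.067 for Casp1, -0.74 to 0.031 for Il18, -1.98 to 0.60 for Il33, -0.54 to 0.17 for Il1rap and -0.38 to 0.20 for Map3k7. With anti-PD1 it gave -0.14 to 0.30 for Casp1, -0.79 to 0.11 for Il1rl1 and -0.024 to 0.30 for Myd88. Between the antibodies it gave -0.71 to 0.21 for Il1r1 and -0.44 to 0.38 for Il18. Of the ratios, Il1rn over macrophage markers with anti-B7-H3 was -0.32 in TPM, against -0.64 in counts. The cause of these changes was not tested. Il1r1 and Il18 had at most 122 counts in any library, and Il1r1 and Nlrp3 each had an IgG library at 0.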
